A study of Mus musculus with 9 samples.

Results

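The genes described here are 45 splicing regulators, namely 13 SR and SR-like proteins, 15 hnRNPs, 7 kinases that phosphorylate splicing factors and 10 proteins of splice site recognition, the spliceosome core and nuclear speckles. They were chosen by name and not by any measured value: the rows of the deposited count table whose Ensembl identifiers map to these 45 symbols, out of 48526 genes in the table. All 45 were expressed highly enough to be among the 18858 genes tested. The counts are for whole genes, so they report the amount of mRNA of each regulator and do not measure intron retention or the choice of splice sites.

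Adult NSCs, the neural stem cells of the subependymal zone (SEZ) lining the lateral ventricles, were grown as neurospheres from C57BL/6 mice of 2 to 4 months of age, with both SEZs of each brain dissected. Differentiation was induced on an adhesive Matrigel substrate by withdrawing EGF while FGF was kept, and RNA-seq compared undifferentiated NSCs (0 h) with cells at 1 h and 6 h of this process, with 3 replicates each and 9 libraries in total. The labels name no transgene and no added compound in any group. No cells kept in EGF for the same 6 h were analysed here, so the withdrawal of EGF and the time in the new culture conditions cannot be told apart.

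SR proteins bind exonic enhancers through RNA recognition motifs and recruit the spliceosome through domains rich in arginine and serine (RS domains), whereas many hnRNPs bind silencers or introns and oppose that recruitment. The CLK, SRPK and DYRK kinases phosphorylate RS domains, which moves SR proteins between speckles, the nucleoplasm and the cytoplasm and switches their activity. Many genes of both families limit their own mRNA through poison exons or retained introns, CLK1 transcripts are a classic case of introns held back in the nucleus, and the balance of SR proteins and hnRNPs is known to shape the neuronal splicing programme.

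Total counts per library were between 65871454 and 105592597, and scaling factors by the trimmed mean of M-values (TMM) between 0.972 and 1.017. The summed level of 8 NSC markers, among them Nes and Sox2, was between 7635 and 9237 CPM (counts scaled to the library size) at 0 h and between 6776 and 8574 CPM at 6 h, while 6 microglial markers reached at most 0.526 CPM in sum, with 1 of the 6 at 0 in all libraries. The sum of 6 neuron markers was 34.8 to 76.4 CPM at 0 h and 66.2 to 133 CPM at 6 h, and the sum of 6 oligodendrocyte markers 49.0 to 84.7 CPM and 66.3 to 118 CPM. That of 6 endothelial markers went from 4.97 to 19.99 CPM at 0 h to 3.23 to 10.8 CPM at 6 h, of 5 ependymal markers from 47.4 to 88.5 CPM to 39.6 to 61.2 CPM, and of 5 fibroblast and pericyte markers from 0.650 to 1.23 CPM to 1.43 to 5.86 CPM. The ependymal sum was mostly Foxj1, at 36.4 to 90.9 CPM over the 9 libraries. The oligodendrocyte sum was mostly Cnp, at 42.7 to 110 CPM, and Flt1 reached 14.7 CPM among the endothelial markers. Single NSC markers differed in direction. In the test described below, 4 of the 8 were higher and 2 lower at 6 h than at 0 h, where 17.4% and 17.5% of all tested genes were. The part of these lists in the changes at 6 h described below was not tested. In such bulk samples, fewer cells of a type and less RNA per cell cannot be told apart.

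The same replicate number recurs at each time point, and these numbers mark libraries that resemble each other: deviations from the time point means, taken over the 45 genes, correlated from 0.726 to 0.948 in 9 pairs, against -0.762 to 0.191 in the 18 pairs of other numbers. Much of the spread among these genes followed the replicate: at 0 h the highest of the 3 libraries exceeded the lowest by 1.16-fold at the median gene (1.02-fold to 1.92-fold), and replicate 2 was lowest for 33 of the 45. The replicate number was kept as a block, and each time point was compared within replicates by the quasi-likelihood test of edgeR on the raw counts, with Benjamini-Hochberg adjusted p-values over all 18858 genes and a threshold of 0.05. The block takes out differences between replicates, so p-values measure the spread of these samples that remains after it. The labels do not say what libraries with the same number share, so that spread may be technical. Levels are given as CPM with TMM-scaled library sizes, for replicates 1, 2 and 3 in this order, and differences as log2 fold changes ± SE with n = 3 per time point.

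Most of these regulators were abundant mRNAs. Per length, as CPM per kb of merged exons, the median of the 45 genes at 0 h was 49.3 against 3.17 over all tested genes, 44 of the 45 were above that overall median and 31 of the 45 were in the upper 10% of genes. Hnrnpa1, which binds exonic and intronic silencers and also shuttles mRNA to the cytoplasm, led with 329 ± 23.6 CPM per kb (SD), followed by Hnrnpa3 at 199 ± 10.5, Hnrnpk at 154 ± 4.83 and Hnrnpu at 115 ± 14.5. Of the SR proteins, Srsf5 was the highest by this measure at 96.3 ± 1.12 CPM per kb. It was ahead of Srsf1 at 85.2 ± 13.5 and Srsf6 at 85.0 ± 6.57, which did not differ from each other beyond their spread. Merged exons join all annotated transcripts and can exceed the longest of them, by 7899 to 4010 bp for Srsf3 and 6466 to 2970 bp for Hnrnpk. Orders between genes were read with this measure of length only. The kinases ranged from 13.96 ± 2.78 CPM per kb for Clk1 down to 4.28 ± 0.29 for Clk3, and Srsf12 was the lowest of the 45 at 1.03 ± 0.32. Reads shared with processed pseudogenes, which Hnrnpa1 and other family members have, could have been split or left out in counting, so the levels of such genes are less certain. Together the 45 genes took 1.55% to 1.68% of all counts at 0 h, 1.51% to 1.60% at 1 h and 1.40% to 1.59% at 6 h.

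**Figure D1:**
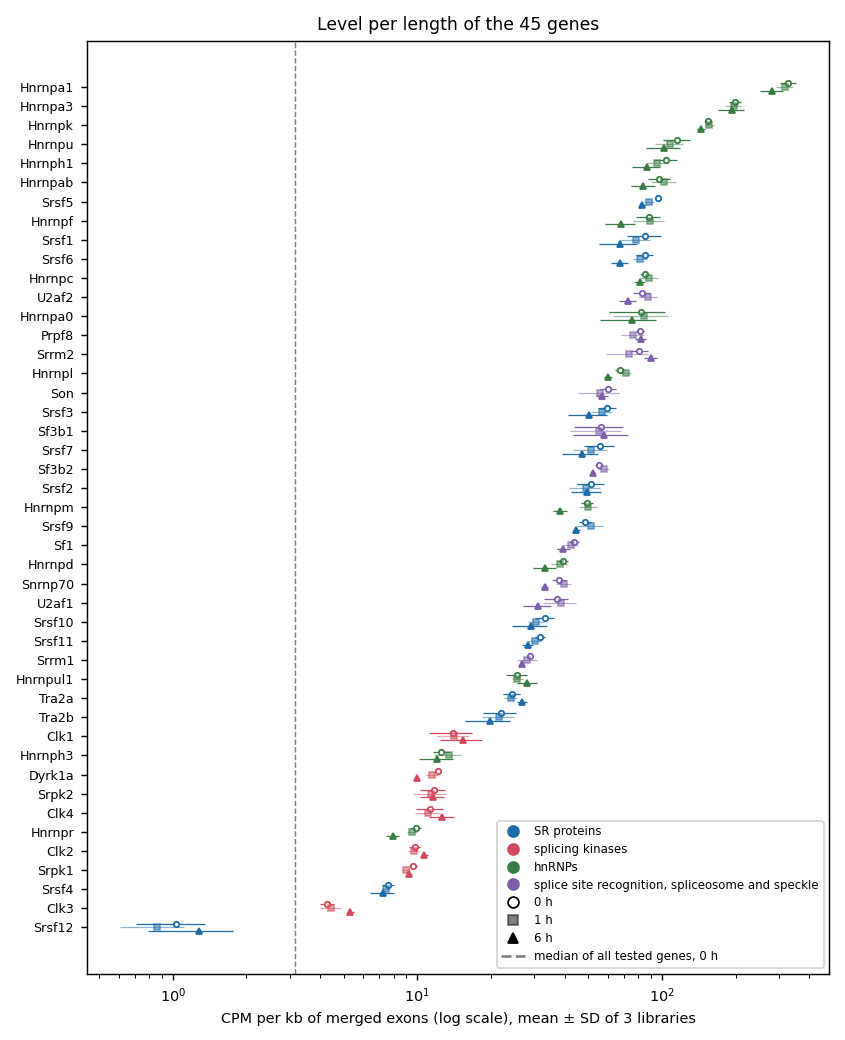
Level of the 45 genes per length, in CPM per kb of merged exons on a log axis, as mean ± SD of 3 libraries at 0 h (open circles), 1 h (pale squares) and 6 h (triangles), coloured by group. The hnRNPs hold the first 6 places, led by Hnrnpa1 at 329 CPM per kb at 0 h, and the highest value of the 7 kinases is 15.3, for Clk1 at 6 h; the dashed line is the median of all tested genes at 0 h, 3.17.

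At 1 h after induction, none of the 45 genes passed the threshold in either direction, where 1.36% of all tested genes were higher and 2.14% lower. DESeq2 called 0 as well, with and without the block, and edgeR without the block called 0 of the 45 and 0.0424% of all genes. At an unadjusted p under 0.05, 0 of the 45 were higher and 6 lower, namely Srsf1, Srsf5, Srsf7, Srsf10, Srpk1 and Hnrnph1, while 1562 of the 18858 genes tested were higher and 1876 lower by the same measure. Their log2 fold changes were between -0.12 and -0.10, with adjusted p-values from 0.194 to 0.269. The median absolute log2 fold change was 0.06 over the 45 genes and 0.11 over all tested genes, and the largest difference, in Srsf12, was -0.25 ± 0.12 (adjusted p = 0.284).

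By 6 h, 22 of the 45 genes were lower and 6 higher than at 0 h, and 17 did not pass the threshold. Over all tested genes, 17.5% were lower and 17.4% higher. Of the SR proteins 8 of 13 fell and 1 rose, of the hnRNPs 9 of 15 fell and 1 rose, and of the splice site, spliceosome and speckle genes 4 of 10 fell and none rose. Of the 7 kinases, Clk1, Clk2, Clk3 and Clk4 rose and Dyrk1a fell. The changes were small: the largest rise was 1.25-fold and the largest fall 1.30-fold, 8 of the 28 genes that changed did so by at least 1.2-fold, and at the median gene the log2 difference was -0.12 for the 45 and -0.00 for all genes. Each of the 28 moved one way in 3 of 3 replicates, which a test within replicates favours. Of all 45, 8 were higher and 31 lower in 3 of 3 replicates, a share that was not counted over all tested genes. The levels at 0 h and 6 h did not overlap for 17 of the 45, of which 13 passed the threshold, against 25.0% of all tested genes without overlap.

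These calls rest on the comparison within replicates. Without the block, edgeR called 0 of the 45 at 6 h and 2.42% of all genes, with 1 higher and 10 lower at an unadjusted p under 0.05, where 1752 and 1621 of the 18858 genes were. DESeq2 without the block called 1 higher, Clk3, and 5 lower, Srsf5, Srsf6, Dyrk1a, Hnrnpm and Hnrnpr, where 5.64% were higher and 4.87% lower of the 16628 genes to which it gave an adjusted p. With the block, DESeq2 called 3 higher (Clk3, Clk4 and Tra2a) and 22 lower of the 45, and 2993 higher and 3111 lower of all genes. Clk1, Clk2 and Hnrnpul1 did not pass in that fit, with adjusted p-values of 0.0551, 0.0728 and 0.0528. The 22 lower genes were 14 without replicate 2 of 0 h. The 6 higher genes were 8 without replicate 3 of 1 h and 1 to 3 without any other library.

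**Figure D2:**
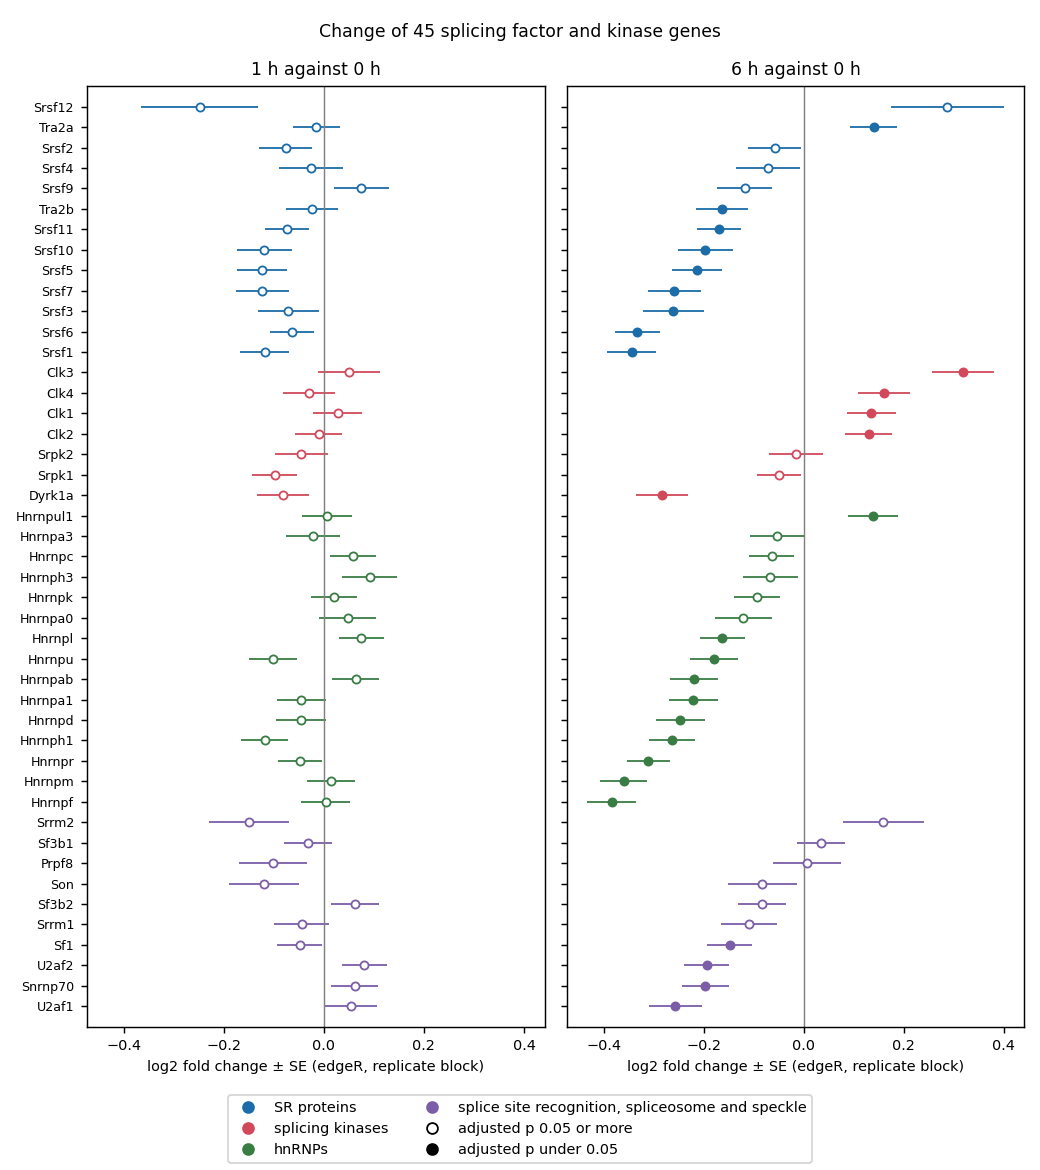
Log2 fold change ± SE of the 45 genes at 1 h against 0 h (left) and 6 h against 0 h (right), from edgeR with the replicate block, coloured by group. Filled circles are genes past an adjusted p of 0.05: none at 1 h, and at 6 h 22 on the left of 0 and 6 on the right, 4 of them Clk genes.

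Promoters are shown for the gene of each group with the largest change at 6 h whose listed start has 100 bases upstream outside every annotated exon, and for Tra2a, which holds a further motif. Sequences are from RefSeq (GRCm38.p6), which listed 61 starts for 43 of the 45 genes. Clk1 and U2af2 had no entry. Capitals mark the GC box, spelled GGGCGG, the box named by its letters CCAAT, and the cyclic AMP response element, spelled TGACGTCA. Either strand was searched, and each run is written 5′ to 3′ on the strand of its gene.
Srsf6, lower at 6 h, chr2:162931408-162931507 (+): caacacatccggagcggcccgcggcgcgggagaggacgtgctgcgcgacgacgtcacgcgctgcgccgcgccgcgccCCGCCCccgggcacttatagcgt
Clk2, higher at 6 h, chr3:89164695-89164794 (+): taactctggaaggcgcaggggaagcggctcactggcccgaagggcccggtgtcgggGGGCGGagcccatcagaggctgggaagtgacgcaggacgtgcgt
Hnrnpr, lower at 6 h, chr4:136310842-136310941 (+): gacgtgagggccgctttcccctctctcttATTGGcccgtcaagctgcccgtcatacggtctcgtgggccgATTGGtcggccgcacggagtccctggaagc
Snrnp70, lower at 6 h, chr7:45395743-45395842 (-): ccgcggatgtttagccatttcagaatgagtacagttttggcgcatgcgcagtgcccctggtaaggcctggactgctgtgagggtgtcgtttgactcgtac
Tra2a, higher at 6 h, chr6:49264053-49264152 (-): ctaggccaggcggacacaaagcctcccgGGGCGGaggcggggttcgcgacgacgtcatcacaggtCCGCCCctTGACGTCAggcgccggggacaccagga

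Over the 250 bases before each start, searched on both strands, promoters of the 45 genes were GC-rich, with a median GC content of 64.4% against 52.4% over all 32851 listed promoters. A GC box stood in 75.4% of their promoters and in 32.7% of all, a CCAAT box in 47.5% and 33.8%, the ETS motif CGGAAG in 27.9% and 13.6%, an E-box (CACGTG) in 6.56% and 6.02%, and TATAAA in 4.92% and 12.4%. The GC box did not separate the directions, since it stood before 19 of 21 lower and 5 of 5 higher genes with a listed start. The cyclic AMP response element was found in 2 of their 61 promoters, which is 3.28%, against 1.55% of all. These were the promoters of Tra2a and Clk4, both called higher at 6 h. With 1 library left out, these calls were kept in 1 and 5 of 9 fits. These motifs were chosen with the expression results known, and a match is a description of letters, not of binding.

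Of the SR proteins, Srsf1, the founding member of the family and a general splicing factor that also acts in mRNA export, changed most. Srsf1 was at 509.9, 400.1 and 549 CPM at 0 h, 468, 378 and 496 CPM at 1 h and 424, 305 and 423 CPM at 6 h. Against 0 h, Srsf1 at 6 h gave a log2 fold change of -0.34 ± 0.05 and an adjusted p of 0.000154. Each replicate was lower at 6 h than at 0 h, although the groups overlapped, with replicate 2 low throughout. Srsf6, a regulator of alternative exons whose promoter is shown above, had separate groups. The libraries held 433, 373 and 421 CPM of Srsf6 at 0 h, 407, 361 and 406 CPM at 1 h and 344, 295 and 335 CPM at 6 h. Srsf6 was lower at 6 h than at 0 h, by a log2 fold change of -0.33 ± 0.04 (adjusted p = 9.35e-05). Its change was nearly the same in each replicate, at -0.33, -0.34 and -0.33.

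Srsf3, the smallest SR protein and an adaptor for mRNA export through NXF1, had a wider spread at 6 h. At 0 h Srsf3 stood at 488, 426 and 505 CPM, at 1 h at 449, 407 and 495 CPM and at 6 h at 437, 315 and 442 CPM. From 0 h to 6 h the log2 fold change of Srsf3 was -0.26 ± 0.06 (adjusted p = 0.00513). Replicate 2 fell most, to the lowest level of the 9 libraries, and the groups overlapped. Srsf7 is a close relative of Srsf3 that also acts in export. Srsf7 was at 217, 167 and 212 CPM at 0 h, 185, 153 and 210.1 CPM at 1 h and 182, 134 and 183 CPM at 6 h. Srsf7 fell between 0 h and 6 h, with a log2 fold change of -0.26 ± 0.05 and an adjusted p of 0.00196. Here too the groups overlapped while each replicate fell. Srsf5, a factor induced by growth signals in other cells, varied least among replicates at 0 h of the SR proteins. The libraries held 383, 389 and 379.8 CPM of Srsf5 at 0 h, 336, 352 and 369.8 CPM at 1 h and 336, 318 and 339.6 CPM at 6 h. Against 0 h, Srsf5 at 6 h gave a log2 fold change of -0.21 ± 0.05 and an adjusted p of 0.00484. All 6 h libraries were below all 0 h libraries. Leaving out any 1 library kept the calls of Srsf1, Srsf6 and Srsf7 in 9 of 9 fits, and those of Srsf3 and Srsf5 in 8 of 9. As in all such counts, 3 of the 9 fits left out a library of the time point not compared, here 1 h. In each of those fits Srsf3 gave -0.26, as in the main fit. Without replicate 2 of 0 h, Srsf3 and Srsf5 gave -0.21 and -0.19 and did not pass. Without replicate 2 of 6 h, Srsf3 gave -0.16 and still passed.

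Smaller falls were measured for Srsf10, a repressor when it is dephosphorylated (-0.20 ± 0.05, adjusted p = 0.0136), Srsf11 (-0.17 ± 0.04, adjusted p = 0.00900) and Tra2b, which binds GAA-rich exonic enhancers (-0.16 ± 0.05, adjusted p = 0.0266). Their calls were kept in 7, 7 and 5 of 9 fits with 1 library left out. Without replicate 2 of 6 h, Srsf10 gave -0.12 and Tra2b -0.10, and neither passed. The value of Tra2b was also -0.10, and did not pass, once GC content and length trends were taken out per library. Tra2a, the close paralogue of Tra2b, was the SR-like gene that rose. At 0 h Tra2a stood at 183, 165 and 158 CPM, at 1 h at 179, 163 and 159 CPM and at 6 h at 195, 178 and 184 CPM. Tra2a was higher at 6 h than at 0 h, by a log2 fold change of 0.14 ± 0.05 (adjusted p = 0.0331). With 1 library left out, its rise was called in 1 of 9 fits, and the groups overlapped. Srsf2, Srsf4, Srsf9 and Srsf12 did not pass the threshold, with log2 fold changes of -0.06, -0.07, -0.12 and 0.29 and adjusted p-values of 0.428, 0.419, 0.118 and 0.0656. Counts of Srsf2 and Srsf4 include exons shared with antisense genes (460 bp with Mettl23 for Srsf2 and 1532 bp with Gm12992 for Srsf4), and since the strand setting of the counting is not given, reads of such pairs cannot be told apart.

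Among the kinases, all 4 CLKs were higher at 6 h. These dual-specificity kinases of the nucleus release SR proteins from speckles. Clk3 had the largest rise and the lowest level per length of the 4. Clk3 was at 34.3, 35.2 and 38.9 CPM at 0 h, 35.3, 35.3 and 41.7 CPM at 1 h and 46.7, 43.4 and 44.8 CPM at 6 h. From 0 h to 6 h the log2 fold change of Clk3 was 0.32 ± 0.06 (adjusted p = 0.00143). All 6 h libraries were above all 0 h libraries, and the call was kept in 9 of 9 fits that left out 1 library. Of the merged exons of Clk3, 1284 bp overlap exons of Edc3 on the other strand.

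The rises of the other 3 were smaller and close to the threshold. The libraries held 62.4, 75.1 and 59.1 CPM of Clk4 at 0 h, 61.2, 72.8 and 58.4 CPM at 1 h and 75.5, 80.3 and 63.7 CPM at 6 h. Clk4 rose between 0 h and 6 h, with a log2 fold change of 0.16 ± 0.05 and an adjusted p of 0.0297. Replicate 2 was the highest for Clk4 at each time point, and the groups overlapped. At 0 h Clk1 stood at 139, 95.6 and 106 CPM, at 1 h at 134, 103 and 108 CPM and at 6 h at 153, 109 and 112 CPM. Against 0 h, Clk1 at 6 h gave a log2 fold change of 0.14 ± 0.05 and an adjusted p of 0.0476. For Clk1, whose transcripts with retained introns are counted together with the spliced mRNA here, replicate 1 was well above the others at each time point. Clk2 was at 53.0, 48.5 and 53.6 CPM at 0 h, 53.2, 48.3 and 52.4 CPM at 1 h and 57.1, 54.4 and 58.0 CPM at 6 h. Clk2 was higher at 6 h than at 0 h, by a log2 fold change of 0.13 ± 0.05 (adjusted p = 0.0492). All 6 h libraries of Clk2 were above all 0 h libraries, but the log2 fold change was 0.03 and did not pass once GC content and length trends were taken out per library. Leaving out 1 library kept the call of Clk4 in 5 of 9 fits, of Clk1 in 2 and of Clk2 in 1, and Clk4 gave 0.10 without replicate 1 of 6 h.

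Dyrk1a, a kinase of several SR proteins encoded in the Down syndrome region of the human genome and a known regulator of neural progenitors, moved the other way. The libraries held 101, 96.7 and 103 CPM of Dyrk1a at 0 h, 99.4, 96.4 and 88.6 CPM at 1 h and 82.1, 83.6 and 81.4 CPM at 6 h. From 0 h to 6 h the log2 fold change of Dyrk1a was -0.28 ± 0.05 (adjusted p = 0.00107). The 6 h libraries were all between 81.4 and 83.6 CPM, below each 0 h library, and 9 of 9 fits that left out 1 library kept the call. Srpk1 and Srpk2, the mainly cytoplasmic kinases that load RS domains with phosphate before nuclear import, gave -0.05 ± 0.04 (adjusted p = 0.425) and -0.02 ± 0.05 (adjusted p = 0.859). Their levels at 0 h were 118.7 ± 4.84 and 162 ± 19.0 CPM (SD), and at 6 h 115 ± 2.55 and 160.3 ± 18.4 CPM.

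**Figure D3:**
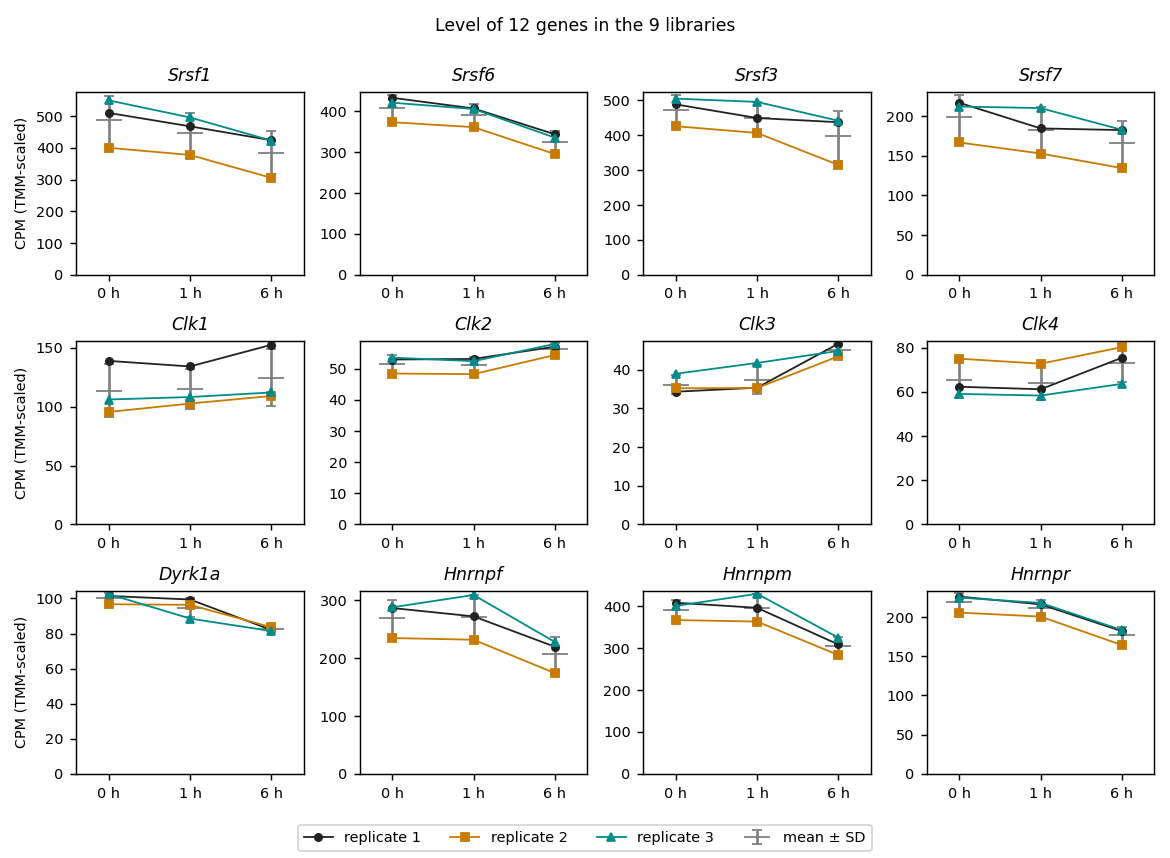
Level of 12 genes in the 9 libraries, in CPM with TMM-scaled library sizes on axes that start at 0, with a line for each replicate and the mean ± SD of each time point in grey. For Srsf1 each line falls, from a range of 400.1 to 549 CPM at 0 h to one of 305 to 424 CPM at 6 h. The lines of Clk3 rise from 34.3 to 38.9 CPM to 43.4 to 46.7 CPM.

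Of the hnRNPs, Hnrnpf, which binds G-runs beside splice sites, fell most. At 0 h Hnrnpf stood at 287, 235 and 288 CPM, at 1 h at 272, 232 and 309 CPM and at 6 h at 219.9, 174 and 228 CPM. Hnrnpf fell between 0 h and 6 h, with a log2 fold change of -0.38 ± 0.05 and an adjusted p of 6.77e-05. Of the merged exons of Hnrnpf, 410 bp overlap exons of 4933440N22Rik and 396 bp those of Gm43863 on the other strand. Each 6 h library was below all 0 h libraries. Hnrnpm, a binder of GU-rich introns, was next. Hnrnpm was at 409, 367 and 401 CPM at 0 h, 397, 364 and 430.1 CPM at 1 h and 309, 284 and 325 CPM at 6 h. Against 0 h, Hnrnpm at 6 h gave a log2 fold change of -0.36 ± 0.05 and an adjusted p of 8.45e-05. The groups did not overlap, but 1169 bp of the merged exons of Hnrnpm are shared with March2 on the same strand. Hnrnpr, a relative of Syncrip that also carries mRNA in axons and has the CCAAT boxes shown above, fell alike in each replicate (-0.31, -0.32 and -0.29). The libraries held 226, 206 and 225 CPM of Hnrnpr at 0 h, 216, 201 and 218 CPM at 1 h and 182, 164 and 183 CPM at 6 h. Hnrnpr was lower at 6 h than at 0 h, by a log2 fold change of -0.31 ± 0.04 (adjusted p = 0.000145). No library of 6 h reached the level of any library of 0 h. Exons of Hnrnpr share 715 bp with Gm27022 on the other strand.

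Hnrnph1, which binds G-runs as Hnrnpf does, and Hnrnpd, also known as AUF1 for its binding to AU-rich elements, followed. At 0 h Hnrnph1 stood at 666, 538 and 619 CPM, at 1 h at 604, 497 and 577 CPM and at 6 h at 558, 434 and 529.9 CPM. From 0 h to 6 h the log2 fold change of Hnrnph1 was -0.26 ± 0.05 (adjusted p = 0.000736). Its groups overlapped, with replicate 2 the lowest at each time point. Hnrnpd was at 292, 273 and 303 CPM at 0 h, 282, 259 and 300.3 CPM at 1 h and 261, 214 and 258 CPM at 6 h. Hnrnpd fell between 0 h and 6 h, with a log2 fold change of -0.25 ± 0.05 and an adjusted p of 0.00184. The groups of Hnrnpd were separate. Of the other hnRNPs, 4 were lower, namely Hnrnpa1 (-0.22 ± 0.05, adjusted p = 0.00357), Hnrnpab (-0.22 ± 0.05, adjusted p = 0.00308), Hnrnpu (-0.18 ± 0.05, adjusted p = 0.0113) and Hnrnpl (-0.16 ± 0.05, adjusted p = 0.0137). Hnrnpul1, a relative of Hnrnpu with a part in DNA repair, was the hnRNP that rose, with 0.14 ± 0.05 (adjusted p = 0.0460), and 3 of 9 fits that left out 1 library kept that call. Hnrnpa0, Hnrnpa3, Hnrnpc, Hnrnph3 and Hnrnpk did not pass the threshold, with log2 fold changes from -0.12 to -0.05. Leaving out any 1 library kept the calls of Hnrnpf, Hnrnpm, Hnrnpr, Hnrnph1, Hnrnpd, Hnrnpa1 and Hnrnpab. That of Hnrnpu was kept in 6 of 9 such fits and that of Hnrnpl in 5, and Hnrnpu gave -0.09 and did not pass without the GC content and length trends. Exons of Hnrnpu share 804 bp with Cox20 on the other strand, and those of Hnrnpd 385 bp with Gm17092.

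Both subunits of U2AF, the factor that binds the polypyrimidine tract and the AG at the 3′ splice site, were lower at 6 h. U2af1 encodes the small subunit, which reads the AG. The libraries held 104, 83.5 and 102 CPM of U2af1 at 0 h, 100.1, 85.2 and 116 CPM at 1 h and 84.0, 69.0 and 89.5 CPM at 6 h. Against 0 h, U2af1 at 6 h gave a log2 fold change of -0.26 ± 0.05 and an adjusted p of 0.00203. U2af2 encodes the large subunit, which binds the tract. At 0 h U2af2 stood at 353, 309.6 and 360.1 CPM, at 1 h at 364, 327 and 391 CPM and at 6 h at 309.7, 270.4 and 314 CPM. U2af2 was lower at 6 h than at 0 h, by a log2 fold change of -0.19 ± 0.04 (adjusted p = 0.00465). For both, each replicate fell while the groups overlapped, and the calls were kept in 9 of 9 fits that left out 1 library. Snrnp70, the U1 snRNP protein that contacts SR proteins at the 5′ splice site and whose promoter is shown above, had separate groups. Snrnp70 was at 299, 267 and 303 CPM at 0 h, 298, 285 and 325 CPM at 1 h and 249.7, 246 and 262 CPM at 6 h. From 0 h to 6 h the log2 fold change of Snrnp70 was -0.20 ± 0.05 (adjusted p = 0.00585). Without replicate 1 of 0 h it was -0.16 and did not pass. Sf1, the branch point binding protein that is replaced by the U2 snRNP, changed least of the 4. The libraries held 286, 262 and 268 CPM of Sf1 at 0 h, 283, 257 and 249 CPM at 1 h and 262, 232 and 243 CPM at 6 h. Sf1 fell between 0 h and 6 h, with a log2 fold change of -0.15 ± 0.05 and an adjusted p of 0.0228. Its call was kept in 4 of 9 such fits.

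The U2 snRNP subunits Sf3b1 and Sf3b2, the U5 protein Prpf8 and the speckle proteins Srrm1, Srrm2 and Son did not pass the threshold at 6 h against 0 h. Their log2 fold changes were 0.03, -0.08, 0.01, -0.11, 0.16 and -0.08. Sf3b1 had the widest replicate spread of these, with 807 CPM in replicate 1 and 568 and 546 CPM in the others at 0 h.

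Set against 1 h, which shares the 6 h libraries with the comparison above, 19 of the 45 genes were lower and 6 higher at 6 h, where 17.5% and 18.0% of all tested genes were. With library totals in place of TMM, 14 were lower and 8 higher. The median log2 fold change was then -0.08 over the 45 genes and 0.03 over all tested genes, whose share past the threshold was not counted. The groups did not overlap for 14 of the 45, 13 of them past the threshold, against 22.2% of all genes. Without the block, edgeR called 0 of the 45 and 2.14% of all genes, with 1 higher and 8 lower at an unadjusted p under 0.05, where 1826 and 1509 of the 18858 genes were. DESeq2 without the block called 0 higher and 5 lower (Dyrk1a, Hnrnpl, Hnrnpm, Hnrnpr and Snrnp70), where 5.72% and 4.66% of the 16263 genes with an adjusted p were called. By group, 4 SR proteins were lower and 2 higher, 10 hnRNPs lower and none higher, 1 kinase lower and 3 higher, and 4 of the splice site, spliceosome and speckle genes lower and 1 higher. The 6 higher genes were 3 without replicate 1 of 1 h, and also 3 without replicate 3 of 6 h.

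Srsf12, an SR protein that represses splicing and was the least abundant of the 45, had the largest difference between 6 h and 1 h. At 0 h Srsf12 stood at 4.05, 2.11 and 3.59 CPM, at 1 h at 3.53, 1.96 and 2.64 CPM and at 6 h at 5.31, 2.35 and 4.38 CPM. Against 1 h, Srsf12 at 6 h gave a log2 fold change of 0.54 ± 0.11 and an adjusted p of 0.00286. Its counts were 156 to 469 per library, and the groups overlapped, with replicate 2 the lowest at each time point. Srsf6, Srsf1 and Srsf3 gave -0.27 ± 0.04 (adjusted p = 0.000484), -0.23 ± 0.05 (adjusted p = 0.00313) and -0.19 ± 0.06 (adjusted p = 0.0284). Without replicate 2 of 6 h, Srsf3 gave -0.10 and did not pass. Srsf9, a small SR protein close to Srsf1, passed the threshold only in this comparison of the 3. Srsf9 was at 79.8, 75.7 and 84.8 CPM at 0 h, 81.5, 76.0 and 96.3 CPM at 1 h and 74.8, 70.9 and 75.4 CPM at 6 h. Srsf9 was lower at 6 h than at 1 h, by a log2 fold change of -0.19 ± 0.06 (adjusted p = 0.0158). The 1 h library of replicate 3 was the highest of the 9 for Srsf9, and without it the log2 fold change was -0.13. Without replicate 3 of 6 h it was -0.14 and did not pass.

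In the kinases, Clk3, Clk4 and Clk2 were higher and Dyrk1a lower at 6 h than at 1 h, with 0.27 ± 0.06 (adjusted p = 0.00437), 0.19 ± 0.05 (adjusted p = 0.0127), 0.14 ± 0.05 (adjusted p = 0.0343) and -0.20 ± 0.05 (adjusted p = 0.00936). With 1 library left out, the call of Clk3 was kept in 9 of 9 fits, of Clk4 in 7, of Dyrk1a in 6 and of Clk2 in 1. The value of Clk2 was 0.05 and did not pass without the trends in GC content and length. Hnrnpf and Hnrnpm again had the largest falls of the hnRNPs, with -0.39 ± 0.05 (adjusted p = 6.78e-05) and -0.37 ± 0.05 (adjusted p = 6.74e-05), and Hnrnpr gave -0.26 ± 0.04 (adjusted p = 0.000535). Hnrnpab, also known as CArG-binding factor A, shares 809 bp of exons with Phykpl on the other strand and had its highest mean at 1 h. The libraries held 287, 240.3 and 288 CPM of Hnrnpab at 0 h, 288, 248 and 316 CPM at 1 h and 251, 203 and 247 CPM at 6 h. From 1 h to 6 h the log2 fold change of Hnrnpab was -0.28 ± 0.05 (adjusted p = 0.000572). Hnrnpl, a binder of CA repeats, also had its highest mean at 1 h. At 0 h Hnrnpl stood at 405, 382 and 419.5 CPM, at 1 h at 414, 408 and 448 CPM and at 6 h at 363, 345 and 369.7 CPM. Hnrnpl fell between 1 h and 6 h, with a log2 fold change of -0.24 ± 0.05 and an adjusted p of 0.00140. Its 6 h libraries were below all 6 libraries of 0 h and 1 h. Hnrnpd, Hnrnpa1, Hnrnpa0, Hnrnph3 and Hnrnph1 also fell, by log2 fold changes from -0.20 to -0.14. The calls of Hnrnpd and Hnrnpa1 were kept in 8 and 7 of 9 fits that left out 1 library, but that of Hnrnpa0 in 3 and those of Hnrnph3 and Hnrnph1 in 2 each, and Hnrnpa0 gave -0.10 without replicate 3 of 6 h.

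U2af1, U2af2 and Snrnp70 fell from 1 h to 6 h, with -0.31 ± 0.05 (adjusted p = 0.000562), -0.27 ± 0.04 (adjusted p = 0.000464) and -0.26 ± 0.05 (adjusted p = 0.00104). Sf3b2, a U2 snRNP protein that contacts RNA near the branch point, was lower by less. Sf3b2 was at 393, 363 and 376 CPM at 0 h, 412, 369.7 and 401 CPM at 1 h and 361, 358 and 349 CPM at 6 h. Against 1 h, Sf3b2 at 6 h gave a log2 fold change of -0.15 ± 0.05 and an adjusted p of 0.0311. The 6 h libraries of Sf3b2 were below all 1 h libraries, and 4 of 9 fits that left out 1 library kept the call. Srrm2, the large scaffold protein of nuclear speckles, had its lowest mean at 1 h. The libraries held 1014, 1133 and 967 CPM of Srrm2 at 0 h, 1008, 1088 and 733 CPM at 1 h and 1097, 1230.3 and 1140.1 CPM at 6 h. Srrm2 was higher at 6 h than at 1 h, by a log2 fold change of 0.31 ± 0.08 (adjusted p = 0.00971). Replicate 3 at 1 h was the lowest of the 9 libraries for Srrm2, at 733 CPM, and without it the log2 fold change was 0.17 and still passed. Without replicate 3 of 6 h it was 0.21 and did not pass. In replicate 3 at 1 h, Son (653 CPM), Prpf8 (504 CPM) and Srrm1 (183 CPM) were also at their lowest of the 9.

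The wider splicing machinery was read from 8 further lists with 141 genes, 139 of them tested. At 1 h, 1 of the 139 was higher (0.719%) and 2 lower (1.44%), against 1.36% and 2.14% of all tested genes. The higher gene was Dyrk1b, a kinase related to Dyrk1a (0.35 ± 0.08). The lower ones were Ppp1r10, a regulatory subunit of protein phosphatase 1 (-0.53 ± 0.06), and Sf3a1, a U2 snRNP protein (-0.20 ± 0.05). Mean levels of Ppp1r10 were 123 CPM at 0 h, 85.5 CPM at 1 h and 132 CPM at 6 h. At 6 h against 0 h, 11 were higher and 59 lower, which is 7.91% and 42.4% of the 139, and their median change was -0.11 on the log2 scale, where 17.4% and 17.5% of all tested genes were called. At 6 h against 1 h, 11 were higher and 49 lower, against 18.0% and 17.5% of all genes. These calls also rest on the block. Without it, edgeR called 0 higher and 0 lower of the 139 at 1 h (1 and 3 at an unadjusted p under 0.05), 0 higher and 4 lower at 6 h against 0 h, and 1 higher and 2 lower against 1 h. DESeq2 without the block called 0 and 1, 2 and 17, and 4 and 19 in the same order. Of all tested genes, edgeR without the block called 0.0424%, 2.42% and 2.14% in either direction, in that order. In that fit at 1 h, 276 of all genes were higher and 459 lower at an unadjusted p under 0.05. DESeq2 without the block called 55 higher and 44 lower of all genes at 1 h. Of genes with an adjusted p, it called 5.64% higher and 4.87% lower at 6 h against 0 h. Against 1 h these shares were 5.72% and 4.66%. Among the genes named here from these lists, Bclaf1, Sf3b3 and Dhx15 passed without the block in edgeR at 6 h against 0 h, with adjusted p-values of 0.0204, 0.0213 and 0.0446, and the others, in the comparison given for each, had adjusted p-values of 0.0677 or more.

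Of 15 other hnRNPs and related proteins, 11 were lower at 6 h than at 0 h and none higher, with the largest falls in Syncrip (-0.39 ± 0.05) and Hnrnpdl (-0.36 ± 0.05). Bclaf1 (-0.62 ± 0.05) and the helicase Ddx46 (-0.48 ± 0.05) led 10 lower genes of 20 further SR-related proteins, of which 2 were higher. The lists of U1 and U2 snRNP proteins (9 of 19 lower, 2 higher) and of U4/U6 and U5 snRNP proteins (8 of 16 lower, none higher) were led by Sf3b3 (-0.51 ± 0.05), Dhx15 (-0.44 ± 0.05) and Txnl4a (-0.33 ± 0.06). Of 16 Sm and LSm proteins, 5 were lower and none higher, with Lsm2 at -0.40 ± 0.06. The list of the PRP19 complex, catalytic step and exon junction complex had 6 lower and 2 higher of 26, with Rbm8a at -0.30 ± 0.06.

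Of 16 other kinases and phosphatases of splicing factors, 2 were higher and 8 lower at 6 h than at 0 h. Srpk3, an SRPK known from muscle, was higher (0.98 ± 0.11), and Dyrk3, a kinase that dissolves speckles and other condensates, lower (-0.60 ± 0.07). The minor spliceosome had 3 higher and 2 lower of 11, with Snrnp25 at 0.36 ± 0.10 and Rnpc3 at -0.39 ± 0.07.

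**Figure D4:**
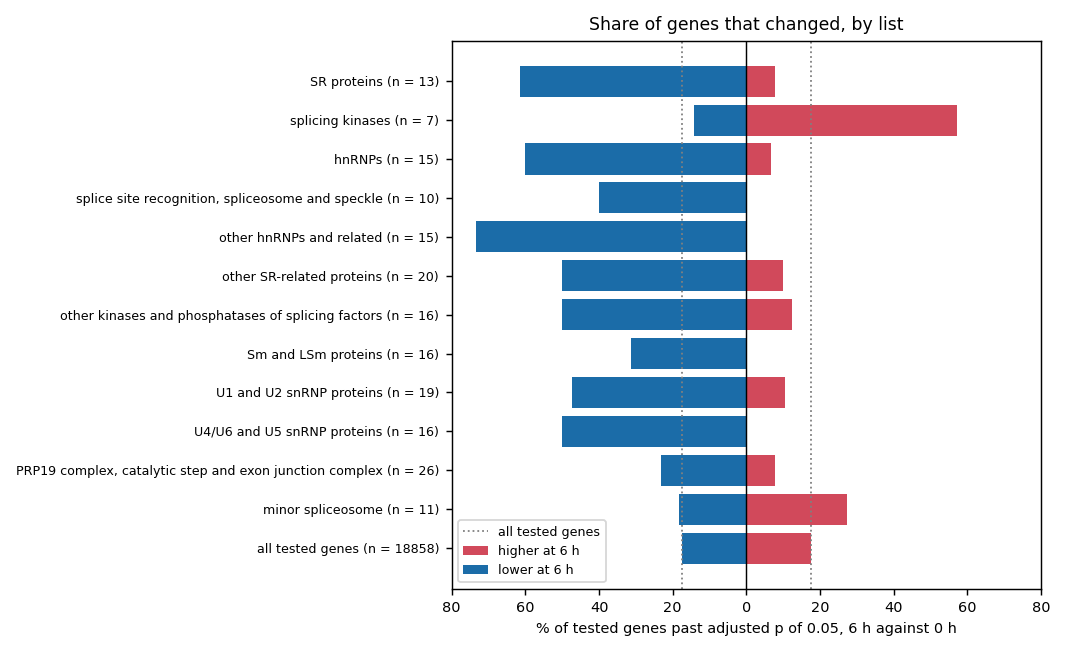
Percent of the tested genes of each list that were lower (blue, left) or higher (red, right) at 6 h than at 0 h, past an adjusted p of 0.05 in edgeR with the replicate block, with n the number of genes tested. The dotted lines mark 17.5% and 17.4% of all tested genes. The kinases have 4 of 7 higher, and the other hnRNPs the largest share lower, 11 of 15.

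The median GC content of the longest transcript was 44.9% over the 45 genes and 49.2% over all tested genes, 48.75% over the 6 genes higher at 6 h (38.8% to 55.4%) and 43.45% over the 22 lower (37.1% to 57.3%). After removal of GC content and length trends from every library, 5 were higher and 23 lower at 6 h against 0 h. The median log2 fold change in that fit was -0.15 over the 45 genes and -0.02 over all tested genes. The share of all tested genes past the threshold was not counted for it.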

How the data were processed

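The 9 libraries were made from mRNA of SEZ NSC cultures, 3 per time point (0 h, 1 h, 6 h), and groups and replicate numbers were taken from the labels. The authors deposited raw counts of reads per Ensembl gene, which are not normalised. They were made from stranded paired-end reads aligned to mm10 (GRCm38) with STAR 2.5.3a; the submitters' processing notes also name FastQC and DESeq2 1.22.1. The strand setting of the counting is not given in the sources used here.

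GENCODE M21 gave positions, merged exons and overlaps for 48144 of the 48526 identifiers. Genes were kept with filterByExpr (minimum count 10, minimum total 15), scaled with TMM and fitted over all 9 libraries with glmQLFit and glmQLFTest of edgeR 4.0.16 in R 4.3.3, with the replicate number as a block and an adjusted p (Benjamini-Hochberg) under 0.05. SEs were computed from F statistics. The fits were tested on simulated data. Alternatives were the fit without the block, DESeq2 1.42.0 with and without it, RLE scaling, library totals, no filter, a mean of at least 1 CPM, only the 6 libraries compared, removal of GC content and length trends (splines with 4 degrees of freedom), an adjusted p under 0.01, a change of at least 1.2-fold, and leaving out each library. Python 3.11.15, pandas 2.3.3 and matplotlib 3.10.9 were used for tables and plots.

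Deviations of log2 CPM (prior count 2) from the time point means correlated, between libraries of 1 number, at 0.733 to 0.800 over the tested genes (9 pairs), and others at -0.462 to -0.314 (18 pairs), so the numbers pair the libraries; the pairing comes from the number in the labels. Values in every library are given for up to 5 genes per group and for each of the 6 h comparisons, namely those past the threshold with the largest absolute log2 fold change and the same direction in 3 of 3 replicates. Tra2a was added to these after its values were seen. Other genes of the 45 are given by counts and fold changes, and of the 8 further lists up to 2 genes per list and comparison are named. The genes, the lists, the tests and the promoter motifs were chosen with earlier results of these data known, so no count is independent support for a pattern. Splicing and intron retention were not analysed here.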

Additional observations from a re-analysis of the deposited data

How the results depend on the processing

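For the 53 values past the threshold (28 at 6 h against 0 h and 25 against 1 h), 20 alternatives each gave 1060 values, of which 777 kept direction and threshold, 283 kept the direction but missed the threshold and 0 reversed. Without the replicate block, the 6 higher and 22 lower genes at 6 h against 0 h became 0 and 0, and the 6 higher and 19 lower against 1 h also 0 and 0. DESeq2 with no block gave 1 higher and 5 lower against 0 h, and 0 and 5 against 1 h. Shares of all tested genes without the block are given above. DESeq2 with the block gave 3 higher and 22 lower against 0 h, and 5 and 23 against 1 h. Of all genes it called 2993 and 3111, and 3010 and 3253. An adjusted p under 0.01 left 1 higher and 17 lower against 0 h, and 3 higher and 12 lower against 1 h. A minimum of 1.2-fold left 1 and 7 against 0 h, and 3 and 6 against 1 h. Leaving out each library gave 1 to 8 higher and 14 to 26 lower against 0 h, and 3 to 6 higher and 13 to 20 lower against 1 h. For these cutoffs and the fits with 1 library left out, the share of all tested genes was not counted. At 1 h against 0 h the count was 0 in both directions under each alternative run. Depth was 65871454 counts or more per library and did not leave any of the 45 genes below the filter; the common biological coefficient of variation was 0.0627 with the block and 0.277 without it, and 3 libraries per time point limit the precision.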
